A study of Homo sapiens with 12 samples.

Results

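In HK-2 kidney cells, 85 genes each had a probe set expressed in control cells and much lower in Nnm-treated cells at both times measured. They were chosen by their measured log2 levels, from 10966 genes with a tested probe set that named only them. A gene belonged if a probe set naming it alone had a control mean of at least log2 6 at 24 h and at 48 h, a Nnm mean at least 1.5 log2 units under the control mean at both times, and every Nnm array under every control array of its time. Where several probe sets of a gene passed, the one with the highest control mean stood for it, and 8 genes that passed were set aside by name or because they are solute carriers. The differences between Nnm and control at 24 h and at 48 h therefore describe the members and are not tested here. In 33 of the 85 genes a probe set with a higher control mean did not meet the rule. Its difference, Nnm minus control, had a median of -0.42 at 24 h and -0.34 at 48 h.

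Of the 14832 probe sets with a high enough control mean, which stood for 8851 genes, 315 were lower by the required amount at 24 h and 241 at 48 h. Both applied to 128 probe sets of 110 genes, and the arrays did not overlap for 98 probe sets of 85 genes, the set-aside genes not counted. Turned round, the same rule found 101 genes that were higher in Nnm cells. Over the members the difference, Nnm minus control, had a median of -1.95 at 24 h, with a range of -3.56 to -1.503, and a median of -1.94 at 48 h, with a range of -3.96 to -1.501. Over all 22829 tested probe sets the median difference was -0.01 at 24 h and 0.01 at 48 h. In 25 members the Nnm mean was lower by at least 2 log2 units at both times, and in 4 of them, CLDN2, EXT1, COX7B and ZBED10P, by at least 3. Just inside the limit on the difference were TCTA, at 1.501 lower at 48 h, and MYL9, at 1.503 lower at 24 h, and just outside were CCNH, at 1.49 lower at 48 h, and POGLUT2, at 1.49 lower at 24 h. CBLN2 and FBXW9 had the lowest control means inside the limit, 6.04 and 6.05, while GNG11 and KBTBD11 missed it with 5.998 and 5.987. The smallest gap between the lowest control array and the highest Nnm array was 0.0023 log2 units, for FBXW9, and the next was 0.0050, for MUC1. In MVD and THSD4 the lowest control array lay under the highest Nnm array, with gaps of -0.028 and -0.029, and both missed the rule for that reason.

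HK-2 is an immortalized human line from the epithelium of the kidney's proximal tubule, the segment that takes back most of the filtered salt, water and nutrients. The 12 arrays held 4 groups of 3 biological replicates: HK-2 cells after 24 h with a high dose of Nnm, their vehicle controls at 24 h, cells after 48 h with the high dose, and their vehicle controls at 48 h. All cells grew in a defined medium with EGF, hydrocortisone, insulin and transferrin and were close to confluent when treated. Nnm is named as in the labels, which give neither the concentration nor the vehicle. Every value is a log2 level made by GCRMA, a method that corrects array background from probe sequence and brings arrays to a common distribution, so a change shared by most transcripts would not appear in it. Of 10 measured proximal tubule markers, PDZK1 and DPP4 had control means of at least log2 4. ANPEP, GGT1, AQP1, LRP2, CUBN, MME, VIL1 and ALPL read under that level on every array. All 6 epithelial markers were present, and 0 of 4 measured leukocyte markers were. Of the measured markers of other cells, 2 of 4 for podocytes, 1 of 4 for the distal nephron and 1 of 5 for endothelium were present. Among fibroblast markers 3 of 6 were present, and their means at 24 h were 8.03 in Nnm cells and 8.83 in control cells for COL1A1, 11.81 in Nnm cells and 12.19 in control cells for DCN, and 10.27 in Nnm cells and 10.35 in control cells for LUM. At 48 h they were 7.65 in Nnm cells and 8.20 in control cells for COL1A1, 11.78 in Nnm cells and 11.9 in control cells for DCN, and 10.26 in Nnm cells and 9.96 in control cells for LUM. Their part in the results was not tested. Bulk arrays cannot tell fewer cells that express a gene from less RNA per cell.

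Nnm replicate 2 stood apart from the other Nnm arrays at both times. Over all tested probe sets its mean correlation with the control arrays of its time was 0.974 at 24 h and 0.977 at 48 h, against 0.938 and 0.947 with the other Nnm arrays. The other Nnm arrays correlated with the controls at 0.922 to 0.934. Results are therefore given with and without that replicate. It was singled out after the values were seen, so counts and p-values without it are a description. Without it the median difference of the members was -2.39 at 24 h and -2.45 at 48 h. Arrays with the same replicate number also deviated together from their group means, and counts from a blocked fit are given beside those without the block.

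**Figure D1:**
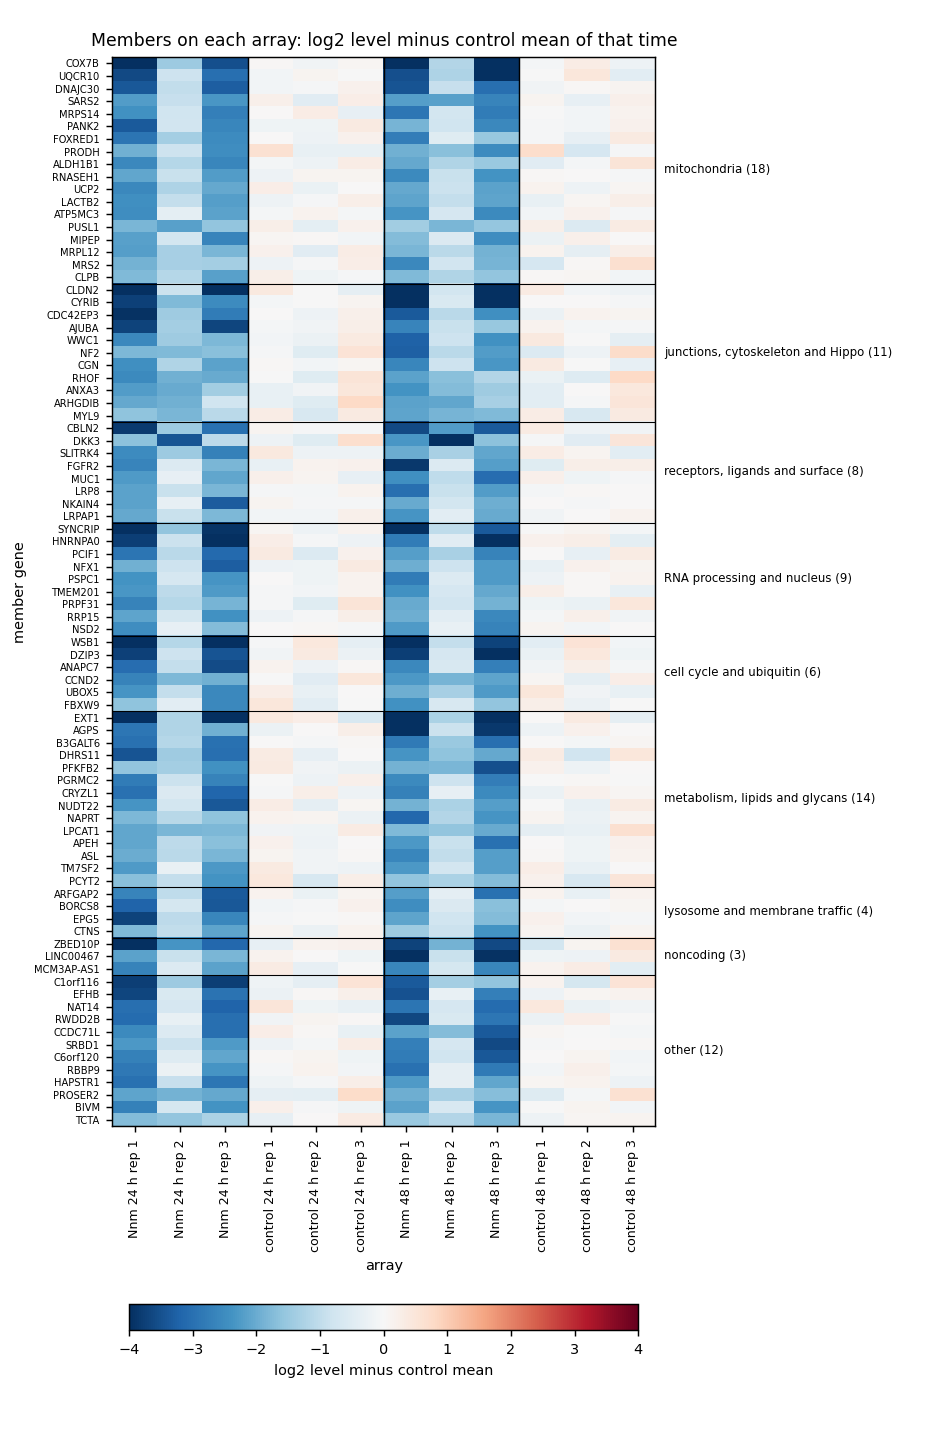
Level of each of the 85 members on each of the 12 arrays, as log2 level minus the control mean of that time, with the members ordered by function and by mean difference. The colour scale ends at -4 and 4, and values beyond it have the end colour. Within each time the Nnm arrays stand left of the control arrays, and Nnm replicate 2 is paler than Nnm replicates 1 and 3 in most members.

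The members cover several parts of the cell's work, and the groups used here were assigned from textbook knowledge after the values were known. Mitochondria make most of the cell's ATP by passing electrons along the respiratory chain, and proximal tubule cells are among the richest in them. Cell junctions seal the epithelium and set what passes between cells, and the Hippo pathway reads cell contact and restrains the growth regulators YAP and TAZ. Ribosome assembly, RNA processing and ubiquitin ligases set how much protein is made and how long it lasts. By function 18 members belong to mitochondria, 14 to metabolism, lipids and glycans, 11 to junctions, cytoskeleton and the Hippo pathway, 9 to RNA processing and the nucleus, 8 to receptors, ligands and the cell surface, 6 to the cell cycle and ubiquitin, and 4 to the lysosome and membrane traffic. Another 3 are noncoding and 12 have other or little described roles. In all, 82 members are protein coding, LINC00467 and MCM3AP-AS1 are long noncoding RNAs and ZBED10P is a transcribed pseudogene. C1orf116 and PFKFB2 are direct neighbours on chromosome 1, and NF2 and UQCR10 lie on chromosome 22 with 4 genes between them in the RefSeq gene table.

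Promoters were looked up in RefSeq sequences of build GRCh38.p14, each window running from 250 bases before the gene's start to 50 after it. A single entry was found for 51 members, several for 13 and none for 21, and only the 51 were searched, on both strands. Their median GC content was 67.7%, against 66% over the 6402 promoters of tested genes with a single entry and 57.7% over all 22114 promoters. The E-box CACGTG, to which MYC and related factors bind, was in 6 of the 51, or 11.8%, against 11.1% of the tested genes' promoters and 7.28% of all promoters. Its holders were WSB1, SYNCRIP, B3GALT6, EFHB, CGN and MIPEP. The CCAAT box (CCAAT), bound by NF-Y, was in 23 members, or 45.1%, against 38.4% of tested genes' promoters. The GC box GGGCGG was in 70.6% against 74.0%, the ETS motif CCGGAAGT in 3.92% against 10.6%, and the NRF1 core GCGCATGC in 5.88% against 6.19%. The TATA box TATAAA was in 7.84% of the members against 4.73%, the CRE TGACGTCA in 3.92% against 3.72%, the AP-1 motif TGANTCA in 1.96% against 3.89%, and the YY1 motif AAGATGGCG in 1.96% against 4.76%. With the 250 bases before the start alone, the E-box was in 4 members, or 7.84%, against 9.64% of tested genes' promoters, so the order of these shares turned round. A match is a run of letters and not a site shown to be bound.

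The 250 bases before the start are shown for 4 members whose only probe set, or whose probe set with the highest control mean, met the rule. They were chosen after the values were seen and come from 3 of the groups: glycan synthesis, tight junctions and mitochondria. B3GALT6, CGN and MIPEP hold an E-box in these bases, as did 4 of the 51 members, or 7.84%, against 9.64% of tested genes' promoters. The sequences shown therefore hold the E-box more often than the members did. Capitals mark the E-box CACGTG and the CCAAT box on either strand, where ATTGG is its reverse complement, and positions count from the start of the gene. The sequences run 5′ to 3′ along the gene's own strand, from RefSeq, GRCh38.p14.
B3GALT6, chr1:1231987-1232236, plus strand: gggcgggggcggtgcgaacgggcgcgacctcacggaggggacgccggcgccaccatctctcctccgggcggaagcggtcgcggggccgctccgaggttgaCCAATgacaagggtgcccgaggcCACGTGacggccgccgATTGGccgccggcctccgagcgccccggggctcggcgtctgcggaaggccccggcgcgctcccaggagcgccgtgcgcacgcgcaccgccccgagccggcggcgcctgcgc
CGN, chr1:151511137-151511386, plus strand: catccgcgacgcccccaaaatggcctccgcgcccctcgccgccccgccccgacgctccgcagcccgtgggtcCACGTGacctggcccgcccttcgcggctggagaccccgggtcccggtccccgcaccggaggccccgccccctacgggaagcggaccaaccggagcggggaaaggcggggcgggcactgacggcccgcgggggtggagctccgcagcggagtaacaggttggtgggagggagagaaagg
MIPEP, chr13:23889401-23889650, minus strand: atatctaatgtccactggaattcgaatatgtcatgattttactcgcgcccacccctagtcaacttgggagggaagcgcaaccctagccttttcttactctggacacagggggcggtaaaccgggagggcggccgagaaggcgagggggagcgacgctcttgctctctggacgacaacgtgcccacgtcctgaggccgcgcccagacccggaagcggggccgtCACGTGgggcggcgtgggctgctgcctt
DNAJC30, chr7:73683454-73683703, minus strand: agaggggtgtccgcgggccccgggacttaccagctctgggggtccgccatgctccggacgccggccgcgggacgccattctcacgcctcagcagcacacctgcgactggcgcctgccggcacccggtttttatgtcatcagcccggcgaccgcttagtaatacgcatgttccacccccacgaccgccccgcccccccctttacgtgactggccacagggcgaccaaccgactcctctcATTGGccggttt
B3GALT6 holds its E-box at -127 with a CCAAT box on either side of it, CGN holds one at -178, MIPEP holds one at -28, and DNAJC30 holds a CCAAT box at -12 and no E-box. B3GALT6 has 4 GC boxes in its whole window, CGN 5, MIPEP 3 and DNAJC30 2.

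The 12 members with the largest mean difference were CLDN2, EXT1, COX7B, WSB1, ZBED10P, CYRIB, SYNCRIP, CBLN2, UQCR10, DZIP3, HNRNPA0 and C1orf116. Values on the arrays are given in the order of replicates 1, 2 and 3, and levels and folds are those of the probe set that met the rule. For EXT1, COX7B, WSB1, CYRIB, SYNCRIP, UQCR10, DZIP3 and HNRNPA0 a probe set of the gene with a higher control mean did not meet it, and those values follow further on. CLDN2, the claudin that forms the paracellular channel for cations and water in the proximal tubule, had log2 levels of 6.06, 10.05 and 6.10 in Nnm cells and 11.30, 10.91 and 10.55 in control cells at 24 h, and of 5.48, 10.18 and 5.18 in Nnm cells and 11.22, 10.81 and 10.70 in control cells at 48 h. Replicates 1 and 3 of the Nnm cells lay far under the controls, while replicate 2 lay within 1 log2 unit of the lowest control array at both times. Over the 3 replicates CLDN2 was 11.4-fold lower in Nnm cells at 24 h and 15.6-fold lower at 48 h, and a single probe set named it. In Nnm cells EXT1, a polymerase of heparan sulfate, read 4.14, 7.56 and 3.86 at 24 h, against 9.12, 8.99 and 8.12 in control cells, and 4.53, 8.42 and 5.65 at 48 h, against 9.71, 10.05 and 9.35 in control cells. Again the second Nnm replicate was the highest of its group, and the groups did not overlap. This probe set of EXT1 was 11.8-fold lower in Nnm cells at 24 h and 11.3-fold lower at 48 h. The levels of COX7B, a small subunit of cytochrome c oxidase, the last complex of the respiratory chain, were 3.44, 6.17 and 4.10 in Nnm cells, against 7.68, 7.49 and 7.70 in control cells, at 24 h, and 2.86, 6.77 and 3.28 in Nnm cells, against 7.87, 8.23 and 7.73 in control cells, at 48 h. This probe set of COX7B was 8.31-fold lower in Nnm cells at 24 h and 12.4-fold lower at 48 h, with the second Nnm replicate highest at both times. WSB1, a substrate receptor of ubiquitin ligases, had log2 levels of 3.63, 6.51 and 2.75 in Nnm cells and 7.60, 8.07 and 7.29 in control cells at 24 h, and of 3.47, 6.59 and 3.83 in Nnm cells and 7.10, 8.08 and 7.42 in control cells at 48 h. This probe set of WSB1 was 10.2-fold lower in Nnm cells at 24 h and 7.48-fold lower at 48 h, and the second Nnm replicate came within 1 log2 unit of the lowest control array at both times. In Nnm cells ZBED10P read 5.26, 6.92 and 6.16 at 24 h, against 8.97, 9.42 and 9.47 in control cells, and 5.98, 7.78 and 6.06 at 48 h, against 8.96, 9.79 and 10.30 in control cells. This pseudogene was 9.02-fold lower in Nnm cells at 24 h and 8.43-fold lower at 48 h, and its 3 Nnm arrays lay closer together than those of the genes before it. The levels of CYRIB, which binds RAC1 and restrains the branching of actin, were 3.44, 5.43 and 4.68 in Nnm cells, against 7.09, 7.17 and 7.29 in control cells, at 24 h, and 2.57, 6.78 and 2.73 in Nnm cells, against 7.42, 7.40 and 7.35 in control cells, at 48 h. Its second Nnm replicate stayed near the controls at 48 h, and this probe set was 6.34-fold lower in Nnm cells at 24 h and 10.3-fold lower at 48 h.

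SYNCRIP, an RNA-binding protein of the hnRNP family, had log2 levels of 6.85, 9.43 and 7.07 in Nnm cells and 11.07, 10.82 and 11.14 in control cells at 24 h, and of 6.71, 9.73 and 7.38 in Nnm cells and 10.71, 10.84 and 10.64 in control cells at 48 h. The SYNCRIP probe set was 9.36-fold lower in Nnm cells at 24 h and 6.90-fold lower at 48 h, with the second Nnm replicate highest at both times. In Nnm cells CBLN2, a secreted organiser of synapses, read 2.502, 4.87 and 3.36 at 24 h, against 6.45, 6.28 and 6.28 in control cells, and 2.44, 3.81 and 2.68 at 48 h, against 6.38, 5.85 and 5.90 in control cells. All 3 Nnm arrays were low at 48 h, and the Nnm mean lay under the filter level of log2 4 at both times. Measured from that level, CBLN2 was at least 5.05-fold lower in Nnm cells at 24 h and at least 4.12-fold lower at 48 h. The levels of UQCR10, a small subunit of respiratory complex III, were 2.72, 5.49 and 3.30 in Nnm cells, against 6.22, 6.43 and 6.33 in control cells, at 24 h, and 3.20, 5.47 and 2.33 in Nnm cells, against 6.69, 7.15 and 6.29 in control cells, at 48 h. The UQCR10 probe set was at least 5.03-fold lower in Nnm cells at 24 h and at least 6.54-fold lower at 48 h, since its Nnm means too lay under log2 4. DZIP3, a RING-type ubiquitin ligase, had log2 levels of 3.13, 6.04 and 3.43 in Nnm cells and 6.73, 7.23 and 6.65 in control cells at 24 h, and of 3.45, 6.53 and 3.06 in Nnm cells and 6.96, 7.63 and 7.04 in control cells at 48 h. The DZIP3 probe set was 6.37-fold lower in Nnm cells at 24 h and 7.27-fold lower at 48 h, with the second Nnm replicate close under the controls. In Nnm cells HNRNPA0, another hnRNP protein, read 3.45, 6.37 and 3.04 at 24 h, against 7.48, 7.17 and 7.02 in control cells, and 4.498, 6.83 and 3.26 at 48 h, against 7.45, 7.53 and 6.89 in control cells. The HNRNPA0 probe set was 7.65-fold lower in Nnm cells at 24 h and 5.38-fold lower at 48 h, and the second Nnm replicate again lay nearest to the controls. The levels of C1orf116 were 3.64, 5.97 and 3.66 in Nnm cells, against 7.24, 7.04 and 7.97 in control cells, at 24 h, and 3.27, 5.29 and 5.05 in Nnm cells, against 6.78, 5.95 and 7.18 in control cells, at 48 h. C1orf116 was 7.96-fold lower in Nnm cells at 24 h and 4.29-fold lower at 48 h, and at 48 h its Nnm replicates 2 and 3 lay close together.

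**Figure D2:**
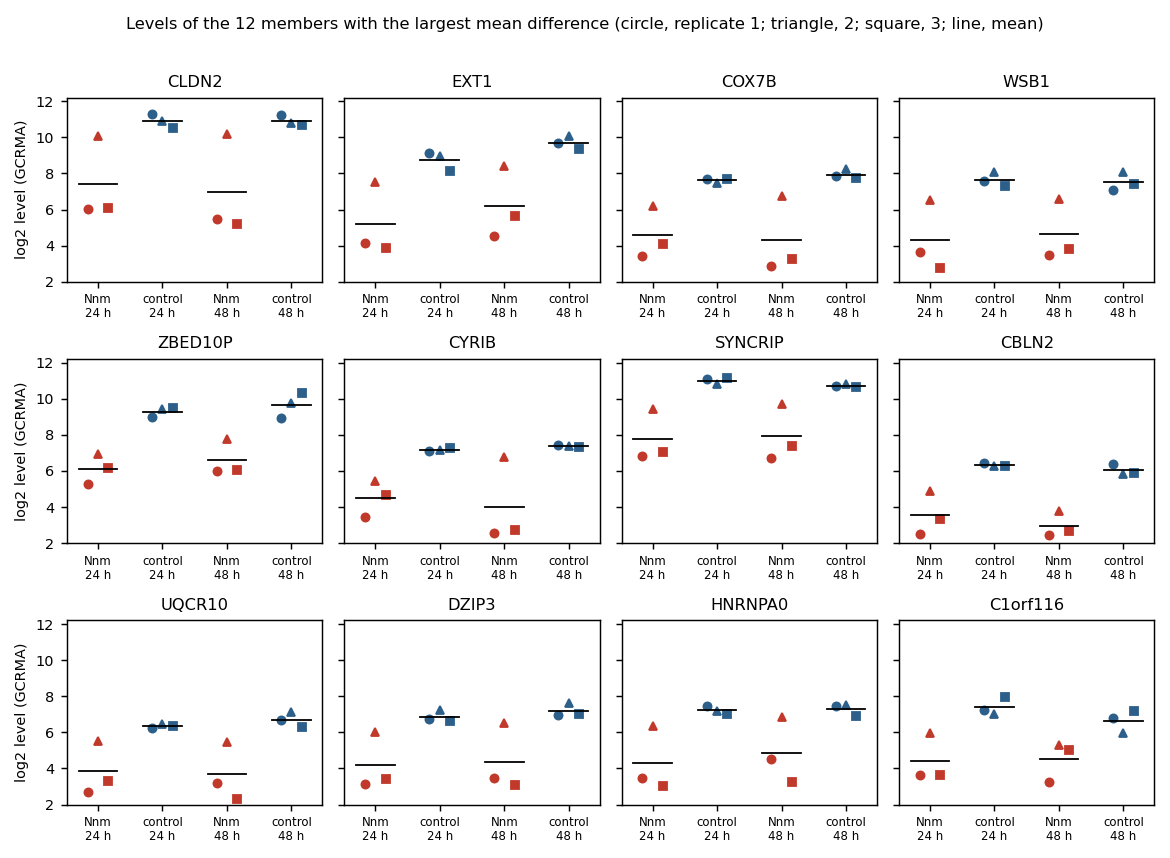
Log2 level of the 12 members with the largest mean difference on every array, with Nnm left of control at each time. Circles, triangles and squares are replicates 1, 2 and 3 and the line is the mean of 3. In each gene all Nnm arrays lie under the control arrays of that time, and the Nnm triangle is the highest of its group.

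Mitochondria held the largest group, 18 members, which were lower in Nnm cells by a median of 1.87 log2 units at 24 h and 1.73 at 48 h. Levels and differences in this and the following groups are those of the probe set that met the rule. For some genes the probe set with the highest control mean did not meet it and differed less, as given further on. Beside COX7B and UQCR10 the respiratory chain was represented by ATP5MC3, which encodes the ring subunit of ATP synthase and was lower by 1.68 and 1.85, and by FOXRED1, an assembly factor of complex I. FOXRED1 had log2 levels of 4.69, 6.25 and 5.12 in Nnm cells and 7.64, 7.42 and 7.79 in control cells at 24 h, and of 4.38, 6.66 and 5.64 in Nnm cells and 7.12, 6.83 and 7.51 in control cells at 48 h. Its 3 Nnm arrays at 48 h were spread over more than 2 log2 units, with the second highest. In Nnm cells DNAJC30, a J-domain protein of mitochondria, read 4.11, 6.52 and 4.21 at 24 h, against 7.39, 7.45 and 7.66 in control cells, and 3.81, 6.32 and 4.25 at 48 h, against 7.11, 7.29 and 7.37 in control cells. DNAJC30 was 5.87-fold lower in Nnm cells at 24 h and 5.498-fold lower at 48 h, and its Nnm replicates 1 and 3 lay close together at both times.

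Protein synthesis inside mitochondria was represented by MRPS14 and MRPL12, proteins of the small and the large mitochondrial ribosomal subunit, SARS2, the mitochondrial seryl-tRNA synthetase, and PUSL1, a pseudouridine synthase. Their differences were -1.99 and -2.14 for MRPS14, -1.79 and -1.60 for MRPL12 and -1.83 and -2.34 for SARS2, at 24 h and 48 h. The levels of PUSL1 were 6.39, 6.02 and 6.61 in Nnm cells, against 8.44, 7.81 and 8.37 in control cells, at 24 h, and 6.68, 6.23 and 6.53 in Nnm cells, against 8.29, 7.503 and 8.39 in control cells, at 48 h. In PUSL1 the second Nnm replicate was the lowest of its group at both times, unlike in most members. Protein quality control was represented by MIPEP, a peptidase that trims imported proteins, at -1.85 and -1.60, and CLPB, a disaggregase of the intermembrane space, at -1.69 and -1.52. UCP2, an uncoupling protein of the inner membrane, had log2 levels of 10.18, 11.51 and 10.68 in Nnm cells and 13.02, 12.46 and 12.75 in control cells at 24 h, and of 10.49, 11.66 and 10.39 in Nnm cells and 12.66, 12.32 and 12.62 in control cells at 48 h. UCP2 was 3.87-fold lower in Nnm cells at 24 h and 3.22-fold lower at 48 h, and its second Nnm replicate was the highest. MRS2, the magnesium channel of the inner membrane, differed by -1.52 and -1.73, and PRODH, proline dehydrogenase, by -1.74 and -2.04. The remaining mitochondrial members were ALDH1B1, an aldehyde dehydrogenase, at -2.10 and -1.58, LACTB2, an endoribonuclease, at -1.87 and -1.73, PANK2, a pantothenate kinase of coenzyme A synthesis, at -2.25 and -1.74, and RNASEH1, which cuts RNA paired to DNA, at -1.74 and -1.94.

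Metabolism, lipids and glycans held 14 members. The group was lower in Nnm cells by a median of 1.96 log2 units at 24 h and 2.03 at 48 h. In Nnm cells B3GALT6, the galactosyltransferase that adds the last galactose of the proteoglycan linker, read 6.75, 8.59 and 6.77 at 24 h, against 9.75, 9.69 and 9.78 in control cells, and 6.92, 8.26 and 6.76 at 48 h, against 9.77, 9.66 and 9.84 in control cells. B3GALT6 was 5.18-fold lower in Nnm cells at 24 h and 5.44-fold lower at 48 h, and together with EXT1 it puts an early and a late step of heparan sulfate synthesis among the members. A further probe set of B3GALT6, with a lower control mean, differed by -0.73 at 24 h and -0.05 at 48 h. Lipid enzymes were AGPS, which makes ether lipids in peroxisomes, at -2.01 and -2.97, LPCAT1, a lysophosphatidylcholine acyltransferase, at -1.90 and -1.78, PCYT2, the regulatory enzyme of phosphatidylethanolamine synthesis, at -1.67 and -1.52, and TM7SF2, a sterol reductase. The levels of TM7SF2 were 6.03, 8.01 and 5.998 in Nnm cells, against 8.66, 8.14 and 8.08 in control cells, at 24 h, and 6.43, 7.98 and 6.52 in Nnm cells, against 8.99, 8.43 and 8.73 in control cells, at 48 h. The second Nnm replicate of TM7SF2 lay within 0.5 log2 units of the lowest control array at both times. PFKFB2, an enzyme that sets the level of the glycolysis activator fructose 2,6-bisphosphate, had log2 levels of 4.89, 5.12 and 4.03 in Nnm cells and 6.84, 6.33 and 6.23 in control cells at 24 h, and of 5.43, 5.47 and 3.81 in Nnm cells and 7.49, 7.12 and 7.34 in control cells at 48 h. In PFKFB2 the third Nnm replicate was the lowest and the other two lay close together. ASL, argininosuccinate lyase of arginine synthesis, differed by -1.62 and -1.93, and NAPRT, which makes NAD from nicotinic acid, by -1.51 and -2.23. DHRS11, a short-chain dehydrogenase, differed by -2.63 and -2.01, CRYZL1, a quinone oxidoreductase-like protein, by -2.24 and -1.87, APEH, a peptidase that removes acetylated residues, by -1.59 and -2.05, NUDT22, a NUDIX hydrolase, by -2.17 and -1.78, and PGRMC2, a heme-binding membrane protein, by -2.11 and -2.04.

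Junctions, the cytoskeleton and the Hippo pathway held 11 members, lower in Nnm cells by a median of 1.94 log2 units at 24 h and 1.92 at 48 h. CLDN2 and CYRIB were described above with the leading members. CGN, or cingulin, which ties tight junctions to the cytoskeleton, differed by -1.94 and -1.92. Hippo pathway members were NF2, or merlin, which promotes the pathway at the membrane, at -1.74 and -2.19, WWC1, or KIBRA, its partner, and AJUBA, a LIM protein that binds and restrains the LATS kinases. In Nnm cells AJUBA read 4.34, 6.67 and 4.37 at 24 h, against 7.96, 7.88 and 8.28 in control cells, and 5.30, 7.04 and 6.42 at 48 h, against 8.09, 7.86 and 7.91 in control cells. Nnm replicates 1 and 3 of AJUBA lay lower at 24 h than at 48 h. The levels of WWC1 were 4.42, 5.58 and 5.21 in Nnm cells, against 6.90, 6.76 and 7.35 in control cells, at 24 h, and 3.66, 6.07 and 4.48 in Nnm cells, against 7.27, 6.89 and 6.53 in control cells, at 48 h. Its second Nnm replicate was the highest of the group at both times, by little at 24 h. The cytoskeleton was also represented by CDC42EP3, an effector of CDC42, at -2.72 and -2.30, and MYL9, a regulatory myosin light chain, at -1.504 and -1.92. ANXA3, a calcium-dependent membrane-binding annexin, differed by -1.87 and -1.85. By their textbook roles NF2 and WWC1 act for the pathway and AJUBA against it. In NF2, WWC1 and AJUBA the probe set with the highest control mean did not meet the rule. It differed by -0.79 and -0.57 in NF2, -0.80 and -0.32 in WWC1, and -0.36 and -0.27 in AJUBA.

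Receptors, ligands and surface proteins held 8 members, lower by a median of 1.80 log2 units at 24 h and 2.11 at 48 h. FGFR2, a receptor of fibroblast growth factors, had log2 levels of 6.59, 8.68 and 7.39 in Nnm cells and 8.92, 9.37 and 9.38 in control cells at 24 h, and of 5.53, 8.84 and 7.19 in Nnm cells and 8.91, 9.62 and 9.63 in control cells at 48 h. The second Nnm replicate of FGFR2 lay close under the lowest control array, by 0.24 at 24 h and 0.07 at 48 h. The first was the lowest at both times. In Nnm cells DKK3, a secreted protein of the dickkopf family, read 5.36, 3.55 and 5.94 at 24 h, against 6.79, 6.51 and 7.66 in control cells, and 4.64, 2.55 and 5.32 at 48 h, against 6.93, 6.52 and 7.45 in control cells. In DKK3, by contrast, the second Nnm replicate was by far the lowest array at both times. MUC1, a transmembrane mucin of epithelial surfaces, differed by -1.56 and -2.17, LRP8, a receptor for reelin and apolipoprotein E, by -1.63 and -2.04, and LRPAP1, the chaperone of that receptor family, by -1.58 and -1.60. SLITRK4 and NKAIN4, membrane proteins known mostly from neurons, differed by -2.22 and -1.79 and by -1.94 and -1.57.

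RNA processing and the nucleus held 9 members, lower by a median of 1.88 log2 units at 24 h and 1.74 at 48 h. The levels of RRP15, a factor of ribosome assembly in the nucleolus, were 4.77, 6.18 and 4.45 in Nnm cells, against 6.68, 6.84 and 7.11 in control cells, at 24 h, and 5.28, 6.82 and 4.65 in Nnm cells, against 7.14, 7.45 and 7.10 in control cells, at 48 h. RRP15 was low in Nnm replicates 1 and 3, and replicate 2 came within 1 log2 unit of the lowest control array. Beside SYNCRIP and HNRNPA0, splicing and RNA binding were represented by PRPF31, a factor of the spliceosome, at -1.88 and -1.56, and PSPC1, a protein of nuclear paraspeckles, at -1.80 and -1.88. PCIF1, which methylates the adenosine next to the mRNA cap, differed by -2.37 and -2.06, NSD2, a methyltransferase of histone H3, by -1.52 and -1.74, NFX1, a zinc finger regulator of transcription, by -2.003 and -1.68, and TMEM201, a protein of the inner nuclear membrane, by -1.88 and -1.73. The cell cycle and ubiquitin held 6 members, lower by a median of 2.33 log2 units at 24 h and 2.03 at 48 h. Beside WSB1 and DZIP3 they were CCND2, or cyclin D2, which drives entry into the cell cycle, at -2.13 and -2.08, ANAPC7, a subunit of the anaphase-promoting complex, at -2.53 and -1.98, UBOX5, a U-box ubiquitin ligase, at -1.97 and -1.85, and FBXW9, an F-box protein, at -1.53 and -1.55. Lysosomes and membrane traffic held EPG5, which tethers autophagosomes to lysosomes, at -2.46 and -1.54, BORCS8, a subunit of the complex that moves lysosomes, at -2.43 and -1.57, CTNS, the lysosomal cystine exporter whose loss damages proximal tubules in cystinosis, at -1.62 and -1.56, and ARFGAP2, which acts on COPI coats, at -2.34 and -1.86.

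Beside ZBED10P the noncoding members were MCM3AP-AS1, at -1.78 and -1.96, and LINC00467, at -1.62 and -2.96. MCM3AP-AS1 is named as an antisense RNA, and its probe set is listed for it alone in the annotation table. The other members were RBBP9, a serine hydrolase, EFHB, an EF-hand protein, NAT14, a predicted N-acetyltransferase, SRBD1, an S1 domain protein, BIVM, CCDC71L, C6orf120, HAPSTR1, PROSER2, RWDD2B and TCTA, beside C1orf116. Their differences lay between -2.99 and -1.53 at 24 h and between -2.42 and -1.501 at 48 h, with C1orf116 included. A Nnm mean under log2 4 was found in 5 members at one time or both, and for EPG5, LINC00467 and SARS2 as for CBLN2 and UQCR10 the fold can be given only as a bound. EPG5 was at least 5.32-fold lower in Nnm cells at 24 h, and at 48 h LINC00467 was at least 7.60-fold and SARS2 at least 4.66-fold lower.

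The 3 Nnm arrays of a member did not agree as closely as its control arrays. The SD of the Nnm arrays had a median over members of 1.05 log2 units at 24 h and 0.96 at 48 h, against 0.245 and 0.256 for the control arrays. Against the control mean of its time, the median difference of the members was -2.54 in Nnm replicate 1, -0.99 in replicate 2 and -2.43 in replicate 3 at 24 h, and -2.44, -0.88 and -2.39 in the same order at 48 h. Replicate 2 was the highest Nnm array in 77 members at 24 h and in 79 at 48 h. Its difference was a median of 38.3% of the mean difference of replicates 1 and 3 at 24 h, and 34.5% at 48 h, and it was under 50% at both times in 46 members. The smallest share at 24 h was that of RBBP9, 8.58%. RBBP9 had log2 levels of 6.86, 9.49 and 7.34 in Nnm cells and 9.67, 9.86 and 9.60 in control cells at 24 h, and of 7.04, 9.66 and 7.18 in Nnm cells and 9.90, 10.20 and 9.93 in control cells at 48 h. Replicates 1 and 3 were low in RBBP9 while replicate 2 reached almost the control level, without overlap. CLDN2, the member with the largest mean difference, had shares of 17.8% at 24 h and 13% at 48 h. At the other end, members in which replicate 2 was lower than the mean of replicates 1 and 3 at both times included DKK3, at 257% and 222%, and PUSL1, at 128% and 125%. The share of MYL9 was 136% at 24 h and 96.6% at 48 h, and that of ANXA3 was 112% and 91.6%. By function the median share at 24 h ran from 24.8% in the members with other roles to 65.2% in the junction and cytoskeleton group.

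**Figure D3:**
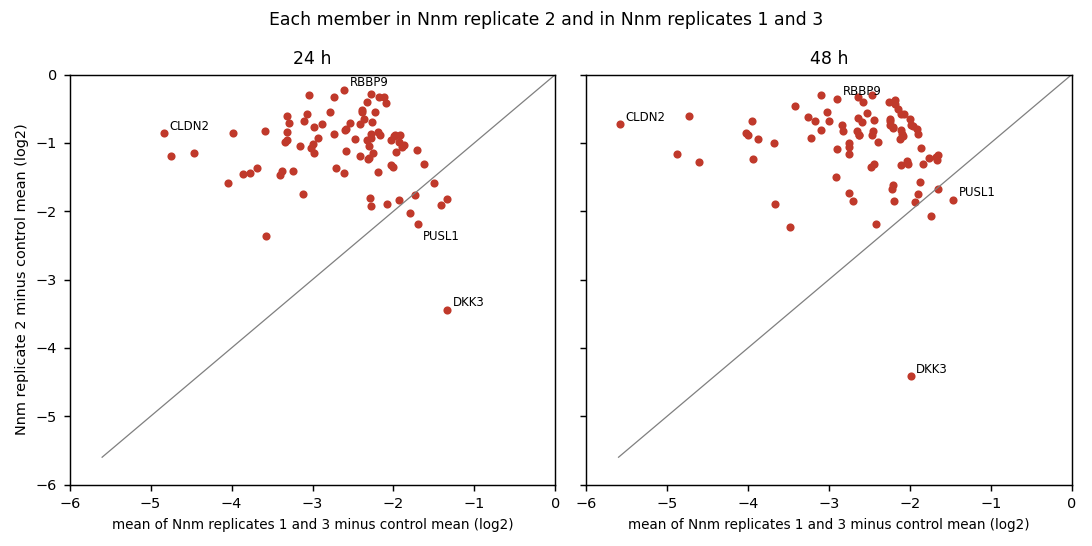
Nnm minus control mean in Nnm replicate 2 (y axis) against the mean of Nnm replicates 1 and 3 (x axis), in log2 units, for the 85 members at 24 h and at 48 h. The line marks equal differences. Most members lie above the line, RBBP9 with a y value near 0, and DKK3 lies far below the line.

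Whether a gene counts as lower also depends on which of its probe sets is read. In 52 members the probe set that met the rule had the highest control mean of all the gene's probe sets, and 16 of the 85 genes had no other. By function these were 11 of the 18 members of mitochondria, 12 of 14 in metabolism, 5 of 11 in junctions and cytoskeleton, 3 of 9 in RNA processing, 3 of 8 in receptors and surface, 3 of 6 in the cell cycle and ubiquitin, 3 of 4 in lysosome and traffic, all 3 noncoding members and 9 of the 12 others. In the other 33 a probe set with a higher control mean did not meet the rule, and its median difference was -0.42 at 24 h, with a range of -1.47 to 1.11, and -0.34 at 48 h, with a range of -1.93 to 0.64. Among the leading members, the probe set with the highest control mean read 1.11 and 0.53 for WSB1, -0.08 and -0.36 for COX7B, and -0.23 and -0.24 for UQCR10, at 24 h and 48 h. For SYNCRIP it read -0.31 and -0.19, for CYRIB -0.13 and -0.38, for EXT1 -1.26 and -1.36, for DZIP3 -0.61 and -0.91, and for HNRNPA0 -0.79 and -0.32. For WSB1 the probe set with the highest control mean was thus higher in Nnm cells, as was another one, at 0.97 and 0.38, while one further probe set met the rule, and for COX7B and UQCR10 it was close to the control. Means above control at both times were also found for HAPSTR1, at 1.03 and 0.49, NFX1, at 0.63 and 0.35, and NSD2, at 0.05 and 0.64. MUC1, at -1.34 and -1.93, was one of 5 members in which it was lower by at least 1 at both times. The others were EXT1, PROSER2, RNASEH1 and PRPF31. That probe set read -0.19 and 0.19 for AGPS, -0.27 and 0.18 for PANK2, -0.38 and 0.006 for RRP15, and -0.86 and 0.10 for CDC42EP3. It read -0.99 and -0.27 for MRPS14, -0.02 and -0.86 for DKK3, -0.24 and -0.31 for ANAPC7, and -0.27 and -0.45 for LRPAP1. For MRS2 it read -0.32 and -0.34, for EPG5 -0.88 and -0.65, for LRP8 -0.75 and -0.17, and for NKAIN4 -0.80 and -1.03. Over all 111 further tested probe sets of 56 members, 98 had a lower mean in Nnm cells at 24 h and 91 at 48 h, with medians of -0.80 and -0.65, and 13 met the rule themselves. Probe sets also parted in some of the 52 members above. A further one read 0.92 and 1.56 for CRYZL1, 0.62 and 0.70 for PSPC1, and -0.52 and 0.33 for CCDC71L. What sets the probe sets of a gene apart was not tested.

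**Figure D4:**
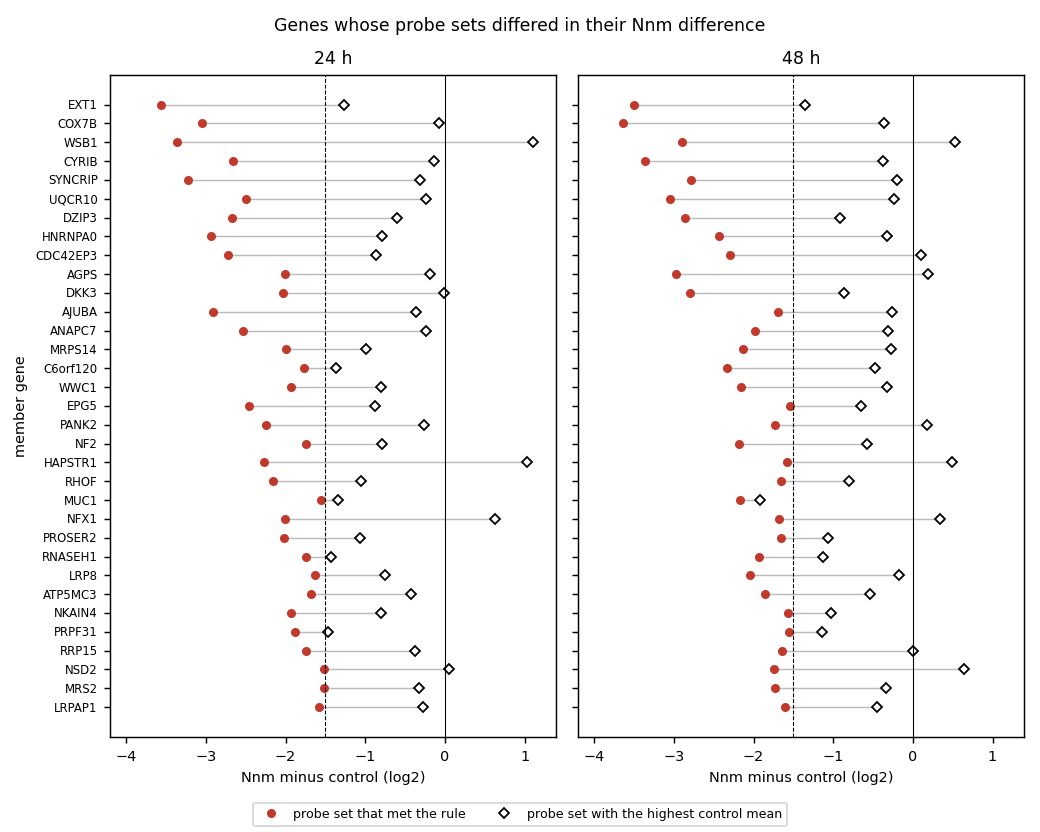
Nnm minus control at 24 h and 48 h, in log2 units, for the probe set that met the rule and for the gene's probe set with the highest control mean, in the 33 members where they differ. The probe sets with the highest control mean lie between -1.93 and 1.11, with medians of -0.42 at 24 h and -0.34 at 48 h, and those of WSB1 and HAPSTR1 lie above 0.

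The difference between the times was set against its spread with limma. The rule asked for a minimum at both times, which limits how far the differences at 24 h and 48 h can part, so the members' counts in these comparisons are a description, and nothing is read from them against the shares over all probe sets. A p-value without the block sets a difference against the spread between biological replicates within the groups. That spread is pooled over the 4 groups, although the members' Nnm arrays spread more than their control arrays. With the block the spread is what remains after differences between replicate numbers are removed. Without Nnm replicate 2 the Nnm groups are smaller. The difference between Nnm and control was larger at 24 h in 47 members and at 48 h in 38. The change of the difference, 48 h minus 24 h, ran from -1.34 in LINC00467 to 1.22 in AJUBA, with a median of 0.06, and lay within 0.5 of 0 in 60 members. No member passed, with a lowest adjusted p of 0.811, and 0 members had an unadjusted p under 0.05; over all tested probe sets, which were not chosen this way, the share was 6.21%. Of all tested probe sets 0% passed after adjustment, here and in the comparisons of 48 h with 24 h within control cells and within Nnm cells. With the replicate block the lowest adjusted p was 0.552. Control cells at 48 h against 24 h differed by -0.96 in NF2 to 0.96 in EXT1, with 75 members within 0.5, and 0 passed (lowest adjusted p 0.550, and 0.139 with the block); 1 had an unadjusted p under 0.05, beside 8.04% of probe sets. Nnm cells at 48 h against 24 h differed by -1.75 in LINC00467 to 1.41 in EPG5, with 63 members within 0.5. None passed there either, with a lowest adjusted p of 0.216 for MYL9, whose difference was -1.31, and 0.0799 with the block; 5 had an unadjusted p under 0.05, beside 13.7% of probe sets.

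Without Nnm replicate 2 at both times the picture by time changed, and 5 members passed for the change, beside 11.2% of all tested probe sets. Leaving out an array because it stood apart also lowers the measured spread. For CLDN2 the standard error of the change was 1.86 with all arrays and 0.33 without that replicate. The limma adjusted p-values below therefore describe these members and are no independent test. The difference was larger at 48 h in CYRIB, with a change of -1.61 (adjusted p = 0.0397), AGPS, with -1.62 (adjusted p = 0.0327), and LINC00467, with -2.02 (adjusted p = 0.00528). It was larger at 24 h in AJUBA, with 1.60 (adjusted p = 0.0372), and BORCS8, with 1.22 (adjusted p = 0.0392). Between the times 17 members passed in Nnm cells, beside 21.8% of probe sets. The 10 that were lower at 48 h than at 24 h were CYRIB, AGPS, LINC00467, SRBD1, NF2, NAPRT, APEH, ASL, MYL9 and MRS2, and the 7 that were higher at 48 h were AJUBA, BORCS8, EPG5, HAPSTR1, ALDH1B1, BIVM and NKAIN4.

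**Figure D5:**
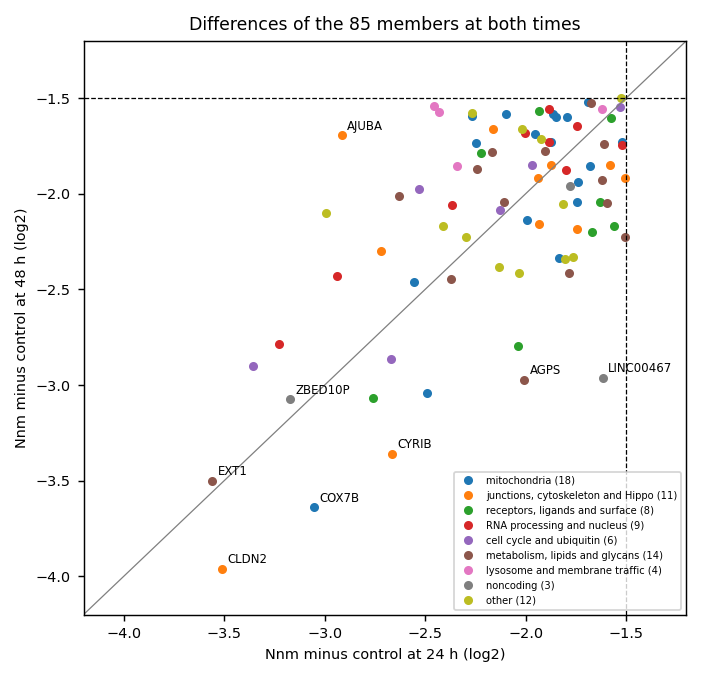
Nnm minus control at 48 h (y axis) against 24 h (x axis) in log2 units, 1 point for each of the 85 members, coloured by function, with the line of equal differences. AJUBA lies furthest above the line and LINC00467 furthest below it.

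Under limma's test of Nnm against control over all 12 arrays, 59 members had an adjusted p under 0.05 at 24 h and 52 at 48 h, 43 at both and 17 at neither. Among the 12 leading members, CLDN2, DZIP3 and HNRNPA0 were called at neither time. Their adjusted p at 24 h and 48 h was 0.0884 and 0.0771, 0.0699 and 0.0692, and 0.0585 and 0.114. Over all tested probe sets 7.42% were called lower at 24 h and 4.44% at 48 h, and 7.32% and 5.74% were called higher. All Nnm arrays lay under all control arrays in 18.9% of tested probe sets at 24 h and 16.1% at 48 h. With the replicate block 82 and 77 members were called, against 15.1% and 10.2% of probe sets called lower. Without Nnm replicate 2 all 85 were called at both times, against 23.6% and 19.8% of probe sets called lower and 23.4% and 22.3% called higher. Leaving out single arrays gave 3 to 84 members called at 24 h and 6 to 85 at 48 h. Since these contrasts chose the members, the counts describe how far each member's difference exceeds its spread and carry no further weight.

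The rule did not use the other genes of the members' pathways, and these were compared with limma, 1 probe set to a gene. The pathway lists were, however, chosen with earlier results of these data known. Their counts and adjusted p-values therefore describe the listed genes. Set against the shares over all genes, they are no independent test of the members' pathways. Only lists that hold a member are described. In lists without a member the share called lower at 24 h ran from 0% to 25%. It was 0% in ERK feedback genes and 25% in nuclear RNA exosome and RNA helicase genes. It was 21.7% in nucleotide excision repair and 7.14% in TGF-beta, BMP and activin signalling. Over all 10966 genes 8.21% were called lower at 24 h and 4.27% at 48 h, 8.31% and 6.55% were called higher, and the median difference was -0.0047 and 0.02. With the block 15.91% and 9.68% of all genes were called lower, and without Nnm replicate 2 24.5% and 19.9%. Of 53 other genes of rRNA processing and ribosome assembly, 27 were called lower and 0 higher in Nnm cells at 24 h, and 10 lower and 0 higher at 48 h, with medians of -0.59 and -0.35. With the block 31 were called lower and 1 higher at 24 h and 10 lower and 1 higher at 48 h. The counts without Nnm replicate 2 were 33 and 2 at 24 h and 22 and 1 at 48 h. TSR1, which matures the small subunit, averaged 8.67 ± 0.53 in Nnm cells and 10.18 ± 0.34 in control cells (SD, n = 3 each; difference -1.52, adjusted p = 0.0116) at 24 h. BYSL, another small-subunit factor, averaged 7.43 ± 0.18 in Nnm cells and 8.92 ± 0.35 in control cells (SD, n = 3 each; difference -1.49, adjusted p = 0.00991) at 24 h and 7.56 ± 0.34 in Nnm cells and 8.44 ± 0.23 in control cells at 48 h (difference -0.88, adjusted p = 0.0361). The helicase DDX56 and the large-subunit factor RRS1 fell at 24 h, with differences of -1.42 (adjusted p = 0.0164) and -1.401 (adjusted p = 0.0132), and at 48 h they differed by -0.44 and -0.10, neither called. Of 59 tRNA modification enzymes, 13 were called lower and 2 higher in Nnm cells at 24 h, and 3 lower and 3 higher at 48 h, with medians of -0.26 and -0.12. The block gave 21 lower and 4 higher at 24 h and 6 lower and 5 higher at 48 h. Leaving out Nnm replicate 2 gave 21 and 9 at 24 h and 19 and 7 at 48 h. WDR4 and METTL1, partners in one methyltransferase, fell by 1.61 (adjusted p = 0.0137) and 1.43 (adjusted p = 0.0221) at 24 h.

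Of 41 other assembly factors of the respiratory chain, 5 were called lower and 0 higher in Nnm cells at 24 h, and 3 lower and 0 higher at 48 h, with medians of -0.45 and -0.37. With the block 18 were called lower and 2 higher at 24 h and 6 lower and 0 higher at 48 h. The counts without Nnm replicate 2 were 23 and 2 at 24 h and 19 and 3 at 48 h. ACAD9, which also acts in fatty acid oxidation, averaged 8.28 ± 1.19 in Nnm cells and 10.32 ± 0.09 in control cells (SD, n = 3 each; difference -2.04, adjusted p = 0.0322) at 24 h. BCS1L, the chaperone of complex III, fell at both times, by 0.87 (adjusted p = 0.0324) and 1.24 (adjusted p = 0.0139). NDUFAF3 fell at 48 h, by 1.60 (adjusted p = 0.0282), and SDHAF4 at 24 h, by 1.30 (adjusted p = 0.0441). Of 13 mitochondrial chaperones and DNAJ proteins, 4 were called lower and 0 higher in Nnm cells at 24 h, and 4 lower and 0 higher at 48 h, with medians of -0.21 and -0.17. The block gave 4 lower and 0 higher at 24 h and 4 lower and 0 higher at 48 h. Leaving out Nnm replicate 2 gave 4 and 1 at 24 h and 4 and 1 at 48 h. TRAP1, a mitochondrial HSP90, averaged 9.05 ± 0.23 in Nnm cells and 10.21 ± 0.07 in control cells (SD, n = 3 each; difference -1.16, adjusted p = 0.00646) at 24 h and differed by -1.12 at 48 h (adjusted p = 0.00492). GRPEL1, LONP1 and DNAJC11 were called lower at both times as well, with differences of -1.13, -0.82 and -0.74 at 24 h and -0.95, -0.73 and -0.56 at 48 h.

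Of 26 other genes of fatty acid and sterol synthesis, 7 were called lower and 0 higher in Nnm cells at 24 h, and 7 lower and 0 higher at 48 h, with medians of -0.67 and -0.65. With the block 15 were called lower and 0 higher at 24 h and 16 lower and 0 higher at 48 h. The counts without Nnm replicate 2 were 19 and 0 at 24 h and 15 and 0 at 48 h. ACAT2, the first enzyme of the sterol branch, averaged 10.01 ± 0.65 in Nnm cells and 11.67 ± 0.13 in control cells (SD, n = 3 each; difference -1.66, adjusted p = 0.0172) at 24 h and differed by -1.48 at 48 h (adjusted p = 0.0248). FASN, fatty acid synthase, differed by -1.31 and -1.28, SREBF1, a regulator of the whole pathway, by -1.13 and -1.19, and NSDHL by -1.07 and -1.04, all called at both times. Of 24 other enzymes of glycosaminoglycan synthesis, 1 was called lower and 2 higher in Nnm cells at 24 h, and 0 lower and 5 higher at 48 h, with medians of 0.15 and 0.30. The block gave 2 lower and 4 higher at 24 h and 0 lower and 6 higher at 48 h. Leaving out Nnm replicate 2 gave 4 and 9 at 24 h and 0 and 13 at 48 h. Unlike EXT1 and B3GALT6, GLCE, the glucuronic acid epimerase, averaged 6.76 ± 0.31 in Nnm cells and 4.79 ± 0.36 in control cells (SD, n = 3 each; difference 1.97, adjusted p = 0.00262) at 48 h, and HS6ST1, a sulfotransferase, rose by 1.33 at 24 h (adjusted p = 0.00897) and 0.84 at 48 h (adjusted p = 0.0248). B4GALT7, which adds the first galactose of the linker, differed by -0.64 at 24 h (adjusted p = 0.0447). Of 8 other genes of the first steps of glycolysis, 1 was called lower and 1 higher in Nnm cells at 24 h, and 0 lower and 0 higher at 48 h, with medians of -0.12 and -0.20. With the block 1 was called lower and 2 higher at 24 h and 2 lower and 1 higher at 48 h. The counts without Nnm replicate 2 were 2 and 2 at 24 h and 0 and 2 at 48 h. HK1, a hexokinase, differed by -0.76 and PFKFB4, a relative of PFKFB2, by 0.79, both at 24 h.

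Of 20 other keratins and junction genes, 0 were called lower and 0 higher in Nnm cells at 24 h, and 0 lower and 3 higher at 48 h, with medians of -0.13 and 0.17. The block gave 3 lower and 2 higher at 24 h and 2 lower and 4 higher at 48 h. Leaving out Nnm replicate 2 gave 5 and 4 at 24 h and 1 and 9 at 48 h. The 3 called at 48 h over all arrays were OCLN, or occludin, at 0.82, CDH2, or N-cadherin, at 0.75, and KRT10 at 0.58. Of 19 target genes of YAP and TEAD, 3 were called lower and 0 higher in Nnm cells at 24 h, and 2 lower and 2 higher at 48 h, with medians of -0.40 and 0.06. With the block 5 were called lower and 1 higher at 24 h and 3 lower and 2 higher at 48 h. The counts without Nnm replicate 2 were 6 and 3 at 24 h and 4 and 3 at 48 h. FJX1 fell at both times, by 2.02 (adjusted p = 0.00879) and 1.30 (adjusted p = 0.0225), AMOTL2 fell by 1.14 at 24 h (adjusted p = 0.0182), and NT5E rose by 2.08 at 48 h (adjusted p = 0.0311). Of 29 genes of the WNT and NOTCH pathways, 0 were called lower and 2 higher in Nnm cells at 24 h, and 0 lower and 1 higher at 48 h, with medians of 0.34 and 0.26. The block gave 0 lower and 10 higher at 24 h and 1 lower and 3 higher at 48 h. Leaving out Nnm replicate 2 gave 0 and 12 at 24 h and 0 and 11 at 48 h. HES1, a NOTCH target, rose by 1.98 at 24 h (adjusted p = 0.0403).

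Relatives of the members, 214 genes that share a symbol stem with one of them, were also looked at. Each was read by its tested probe set with the highest mean over all arrays, as were the pathway genes. At 24 h 22 of them, or 10.3%, were called lower and 7 higher, and at 48 h 16, or 7.48%, lower and 10 higher. The block gave 52 and 37 called lower, or 24.3% and 17.3%, with 17 called higher at each time, and leaving out Nnm replicate 2 gave 74 and 62, or 34.6% and 29.0%, with 26 called higher at each time. At each time 143 had a lower mean in Nnm cells, or 66.8%, against 50.4% and 47.9% of all genes, and their median difference was -0.22 at 24 h and -0.15 at 48 h. Stems differed at 24 h, with a lower mean in 25 of 26 MRPS, 14 of 16 COX and 7 of 7 RRP relatives. The mean was lower in only 1 of 9 LRP, 2 of 7 FBXW and 1 of 4 CDC42EP relatives. Among 26 other proteins of the small mitochondrial ribosomal subunit, 8 were called lower at 24 h and 4 at 48 h, and 25 and 23 had a lower mean; with the block 15 and 11 were called lower, and without Nnm replicate 2 16 and 13. MRPS28 differed by -1.02 at 24 h, MRPS25 by -0.88 and -0.81, and MRPS9 by -0.48 and -0.53. Of 7 other RRP genes of ribosome assembly, 4 were called lower at 24 h and 2 at 48 h, as many as with the block and without Nnm replicate 2, RRP7A with -1.89 and -1.25, RRP36 with -1.30 and -1.10 and RRP1 with -0.95 at 24 h. Of 8 other claudins 0 were called at either time by limma, 3 and 1 was called lower and 1 and 0 higher with the block, and 1 and 0 were called lower and 2 and 2 higher without Nnm replicate 2. Of 16 other COX genes 0 were called lower at 24 h and 1 at 48 h, COX8A, with -0.52, while 3 and 2 were called lower with the block and 5 and 7 without Nnm replicate 2. ATP5MC1, which encodes the same ring subunit as ATP5MC3, differed by -0.998 and -1.27. EXT2, the partner of EXT1 in heparan sulfate synthesis, differed by 0.29 and 0.65 and was not called over all arrays. At 48 h EXT2 was called higher with the block (adjusted p = 0.0138) and without Nnm replicate 2 (adjusted p = 0.0249). The EXT1 probe set with the highest control mean differed by -1.26 and -1.36, and that of ATP5MC3 by -0.42 and -0.54. CCND1, or cyclin D1, differed by -0.69 and -1.33, and was called lower only with the block and at 48 h (adjusted p = 0.0135), not over all arrays or without Nnm replicate 2. Some relatives rose, with DHRS2, a dehydrogenase related to DHRS11, higher by 5.34 and 5.43, LRP11 by 1.42 and 1.34, and LRP4 by 2.04 at 48 h.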

How the data were processed

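RNA of 12 cultures of HK-2 cells was measured on Affymetrix arrays. The deposited log2 values were made by the authors with GCRMA, per the submitters' processing notes; the sources used here give no version, and how it was run across arrays was not stated. Probe sets were named through GEO's platform annotation and RefSeq GRCh38.p14: 41097 name 1 gene, 1801 several and 11721 none. Manufacturer controls (62) were left out, and the 22829 probe sets above log2 4 on at least 3 arrays were tested with limma 3.58.1 in R 4.3.3 (4 group means, 12 arrays, Benjamini-Hochberg, adjusted p under 0.05), a script tested on simulated data. The simulated arrays were independent and all had the spread of the control arrays. That check therefore does not cover the wider spread of the Nnm arrays or the shared deviation of replicate numbers. The number of arrays limits the precision. A fold is 2 to the power of the log2 difference, and where the Nnm mean lay under log2 4 it is a bound measured from that level.

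The members and lists were chosen with earlier results of these data known, and the groups by function after the values were seen. Values on every array are given for the 12 members with the largest mean difference, for up to 12 that belong to a list or group opened with, and for the smallest and largest share of Nnm replicate 2; up to 4 called genes are named per list and 3 relatives per stem.

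The labels number the biological replicates 1 to 3 in each group, and all 18 pairs with the same number in different groups deviated together (correlations 0.162 to 0.669, median 0.363), against a median of -0.208 for the 36 pairs with different numbers. Deviations from a group's own mean cancel out within the group, so the second median largely follows from the first and adds little. The numbers were taken to pair the samples because of the same-number pairs. Alternatives were the filter, normalization, thresholds, probe set choice, single arrays left out, the block and each time alone. The values of some members are not reported here.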

Additional observations from a re-analysis of the deposited data

How the results depend on the processing

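The number of members, 85, was 254 with a difference of at least 1 log2 unit, 29 with at least 2, and 52 when the probe set with the highest control mean was taken first. Leaving out single arrays gave 63 to 145 members, the most without Nnm 48 h replicate 2, and 37 members were kept under every such omission; without Nnm replicate 2 at both times there were 237, of which 80 were shared with the 85. At 24 h 59 members were called, 11 with no filter on low values, 2 on the 6 arrays of 24 h alone and 3 to 84 without single arrays: 4 without Nnm 24 h replicate 1, 7 without its replicate 3, 9, 32 and 3 without control 24 h replicates 1, 2 and 3, and 38 without control 48 h replicate 2. At 48 h 52 were called, 12 with no filter, 4 on the 6 arrays of 48 h alone, 85 without Nnm replicate 2 at both times and 6 to 85 without single arrays: 85 without Nnm 24 h replicate 2, 7, 85 and 6 without Nnm 48 h replicates 1, 2 and 3, 31 and 32 without control 24 h replicates 1 and 3, and 8, 18 and 8 without control 48 h replicates 1, 2 and 3. The causes were not tested. Between the times, 0 members were called for the change of the difference and 5 without Nnm replicate 2 at both times; in Nnm cells 0 were called, 17 without Nnm replicate 2 at both times and 0 to 6 without single arrays, 6 without Nnm 24 h replicate 2 and 6 without Nnm 48 h replicate 2. The median difference ran from -2.39 to -1.76 at 24 h and from -2.45 to -1.68 at 48 h over all array omissions, and it was -1.29 and -1.06 as the mean over all probe sets of a gene. When only the 250 bases before the start were searched, the AP-1 motif was in 0% of members in place of 1.96%, CRE and ETS were each in 1.96% in place of 3.92%, and the E-box was in 7.84% in place of 11.8%.

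With the replicate number as a block, which pairs the samples, 82 members were called at 24 h and 77 at 48 h, and the block gave 0 members in each comparison between times. Of the other limits, 3 arrays a group allow few firm statements on single genes, and values under about log2 4 are near background and give only bounds.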
